A study of Rattus norvegicus with 52 samples.

Results

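Collagen-rich cells are here the cells in which the raw counts of Col1a1 and Col3a1 summed to 50 or more, and collagen-negative cells are those in which that sum was 0. Of 52 single cells, 7 were collagen-rich and 17 were collagen-negative, and the other 28, with a sum above 0 and below 50, were left out. Because both classes were chosen by these 2 genes, their counts are given as a description and no test of them is reported. All 52 cells came from aneurysm lesions of 3 male Sprague Dawley rats aged 7 weeks and carry the label of macrophages. In each rat the left common carotid artery had been divided and sewn end-to-side onto the right one, the left renal artery had been tied and salt had been loaded, and the chow held 3-aminopropionitrile at 0.12%, a blocker of lysyl oxidase, and sodium chloride at 8%. The labels tell that nanoparticles loaded with the dye DiI were given into a vein and that DiI-bearing cells were cut from the lesion by laser, cell by cell, 3 days later. They name no surface marker by which the cells were picked, and all groups share the surgery, the diet and the dye. The 7 collagen-rich cells were cells 10, 14, 20 and 27 of rat 2 and cells 33, 43 and 45 of rat 3. The 17 collagen-negative cells were 11 of rat 2, 5 of rat 3 and 1 of rat 1, so that 2 rats held both classes.

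Col1a1 and Col3a1 encode chains of the fibrillar collagens type I and type III, the fibres that carry load in the arterial wall. Their chains are hydroxylated, folded and trimmed by dedicated enzymes and chaperones, and lysyl oxidases then cross-link the fibres outside the cell. In arteries, fibroblasts and synthetic smooth muscle cells are the known makers of these collagens, while macrophages are best known for taking up and degrading matrix.

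Depth differed between the classes. Collagen-rich cells held 7908 to 39018 counts (median 19338) and collagen-negative cells 1538 to 30984 (median 10233). The median number of genes found, meaning 1 or more counts, was 2713 in collagen-rich cells and 1486 in collagen-negative cells. A threshold on raw counts selects on depth as well, so detection is also given as the expectation after drawing each cell down to 5000 counts, which all 7 collagen-rich and 15 of 17 collagen-negative cells reach. At this common depth a cell showed on average 5.39% of all genes in the collagen-rich class and 5.51% in the collagen-negative class. Counts are of reads, so repeated copies of 1 molecule are not removed by a molecular tag.

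The collagen counts that chose the cells were unequal among the 7. In rat 2, Col1a1 had 144, 356, 398 and 2 counts in cells 10, 14, 20 and 27, and Col3a1 had 0, 215, 66 and 226. In rat 3, Col1a1 had 397, 293 and 197 counts in cells 33, 43 and 45, and Col3a1 had 304, 75 and 92. Cell 10 thus carried Col1a1 without Col3a1 and cell 27 almost only Col3a1, while the other 5 cells had both chains. The sums took 0.943% to 4.56% of a cell's counts. The lowest sum inside the class was 144, and the highest below the threshold was 46, all Col1a1, in cell 31 of rat 3. Cell 34 of rat 3, a collagen-negative cell, had 30984 counts in all and none of either collagen.

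**Figure D1:**
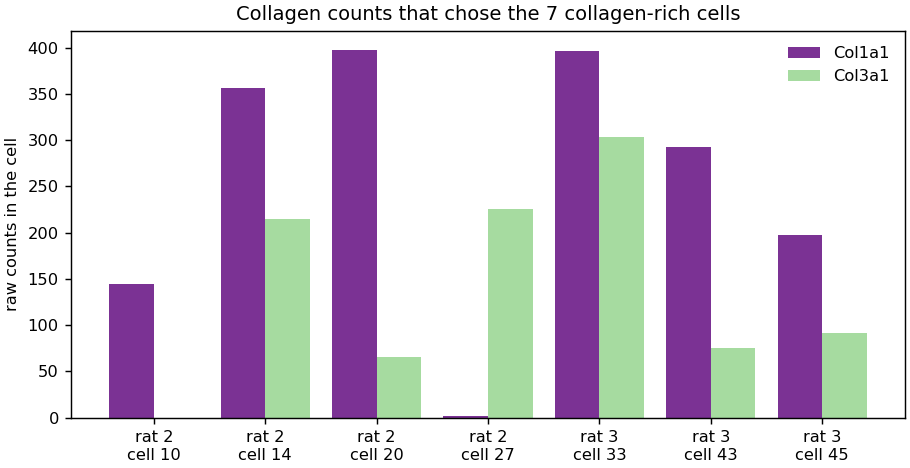
Raw counts of Col1a1 and Col3a1 (vertical axis) in each of the 7 collagen-rich cells (horizontal axis), 1 bar per gene and cell. Cell 10 of rat 2 has no Col3a1, and cell 27 of rat 2 has 226 counts of Col3a1 beside 2 of Col1a1.

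Beyond the collagens, the share of cells with 5 or more counts of a gene differed by 50 percentage points or more in favour of collagen-rich cells for 27 of 13991 genes (0.193%) seen in either class or both. The leading ones were Apoe, Vim, Sparc and Pabpc1, and matrix genes (Bgn and Postn) and ribosomal protein genes followed. The formal test summed counts per rat and class and compared the classes within rats 2 and 3, with 1 residual degree of freedom. With edgeR's quasi-likelihood test and Benjamini-Hochberg adjustment, 0 of 748 genes were called higher (0%) and 0 lower (0%) in collagen-rich cells at an adjusted p under 0.05. The smallest adjusted p was 0.309, and 50 genes were higher and 41 lower at an unadjusted p under 0.05. DESeq2 on the same sums called 19 genes higher (2.54%) and 3 lower (0.401%). An exact sign-flip test over 2 rats cannot give a p under 0.5. The values below are therefore levels and detection rates in these cells, and none of the edgeR comparisons passed its threshold. Gene lists are described by their counts and detection rates and were not tested. Fitted fold changes of genes at or near 0 counts in 1 class depend on the prior count that edgeR adds and are not bounds. The SE beside an edgeR fold change is that fold change, without its sign, divided by the square root of the test's F statistic. It is thus calculated back from the test and is not a standard error of the fit.

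Genes that partner collagen in the matrix were found at higher rates in the collagen-rich cells of both rats. Of the 34 measured members of the list of matrix glycoproteins and proteoglycans, a collagen-rich cell showed on average 16.8% and a collagen-negative cell 4.89% at the common depth, a difference of 11.9 ± 2.95 percentage points (SD, n = 2 rats). Every collagen-rich cell had 1 to 10 members at 5 or more counts, whereas 2 of 17 collagen-negative cells had any. In rat 2 the means were 18.7% in collagen-rich and 4.66% in collagen-negative cells, and in rat 3 they were 14.9% in collagen-rich and 5.12% in collagen-negative cells. Of this list 4 genes passed the filter on low counts, and 0 were called by edgeR or DESeq2. Outside the list, DESeq2 called Mgp, for matrix Gla protein, higher (log2 fold change 8.50, adjusted p = 0.0398), and edgeR did not. Mgp is named after its values were seen.

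Sparc, a collagen-binding secreted protein, had 16, 41, 47 and 0 counts in collagen-rich cells 10, 14, 20 and 27 of rat 2 and 231, 17 and 21 in cells 33, 43 and 45 of rat 3. Collagen-negative cells had 0 to 16 counts with a median of 0, and 1 of 17 reached 5. Collagen-rich cell 27, with none, and collagen-negative cell 18 of rat 2, with 16, made the ranges overlap. Its log2 fold change was 5.26 ± 2.03 (SE; adjusted p = 0.483, edgeR).

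Bgn encodes biglycan, a small proteoglycan that decorates collagen fibres. It had 0 to 118 counts in collagen-rich cells (median 8) and 0 to 2 in collagen-negative cells (median 0). Postn encodes periostin, a matricellular protein of healing tissue. It was found in 5 of 7 collagen-rich cells, at 7, 15 and 5 counts in cells 14, 20 and 27 of rat 2 and 4 and 12 in cells 33 and 45 of rat 3, against 1 count in 1 of 17 collagen-negative cells. Its log2 fold change was 5.46 ± 1.46 (SE; adjusted p = 0.309, edgeR).

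Other matrix genes were concentrated in single cells. Tnc, encoding tenascin C, a wound matrix glycoprotein, had 614 counts in cell 33 of rat 3, 15 and 5 in cells 14 and 27 of rat 2 and 0 in the other collagen-rich cells, and reached at most 5 in collagen-negative cells. Lum, for the proteoglycan lumican, had 284 counts in cell 45 of rat 3. It was that cell's most counted named gene when genes found in 50 or more of the 52 cells were left out. Fn1, for fibronectin, had 2, 21 and 61 counts in cells 10, 14 and 20 of rat 2 and 6 in cell 43 of rat 3, against a highest value of 1 in collagen-negative cells. Dcn, for decorin, had 5, 15 and 2 counts in cells 14, 20 and 27 of rat 2 and 0 in the collagen-rich cells of rat 3. No cell carried all of these genes, and cell 20 of rat 2 had the most members of the list at 5 or more counts. In all, 10 of the 34 measured members of the list, elastin (Eln) and fibulin 5 (Fbln5) among them, had no count in any collagen-rich cell. In the collagen-negative cells 11 members had none. Of all 22081 genes, 12087 had no count in any collagen-rich cell and 10922 none in any collagen-negative cell.

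**Figure D2:**
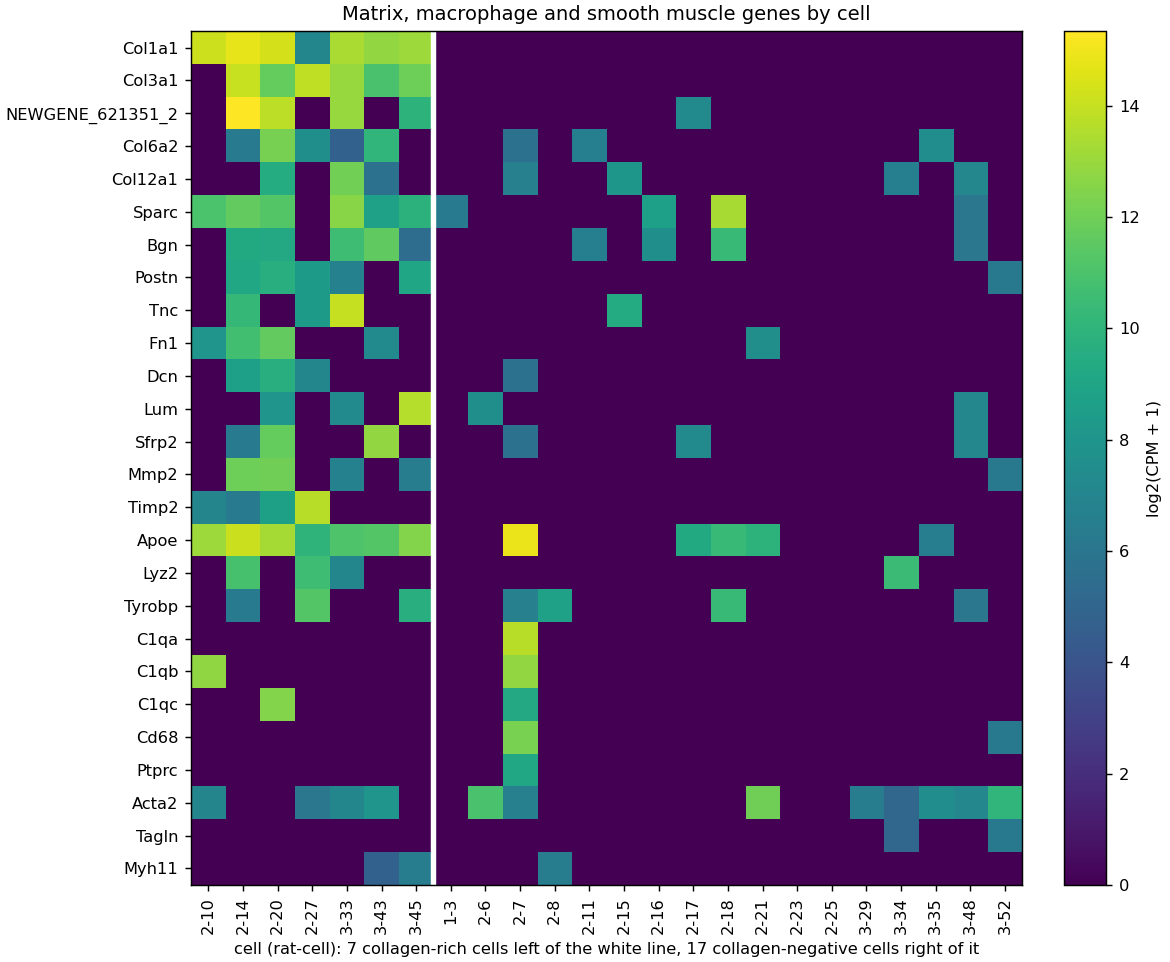
Level as log2(CPM + 1), where CPM is the gene's counts scaled to a fixed total per cell, for 26 genes (rows) in the 7 collagen-rich cells (left of the white line) and the 17 collagen-negative cells (right of it). Matrix genes stand above 0 in a different subset of each collagen-rich cell, and C1qa, Cd68 and Ptprc are at 0 in all 7 of them but not in cell 7 of rat 2.

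For the other collagen chains the sign of the difference depended on the setting. The 31 measured chains outside the fibrillar group were found at 8.84% per collagen-rich cell and 9.66% per collagen-negative cell at the common depth, a difference of -0.82 ± 0.16 points (SD, n = 2 rats). At 5 or more counts and the common depth they were found at 2.04% per collagen-rich cell and 0.972% per collagen-negative cell, a difference of 1.07 ± 0.27 points. At 1 or more counts without a common depth the difference was 5.80 points, beside 4.11 points over all genes. Single chains were high in single cells. Col6a2, of the microfibrillar type VI collagen, had 90 counts in cell 20 of rat 2 and 43 in cell 43 of rat 3, and at most 2 in collagen-negative cells. Col12a1, whose product binds to collagen fibres, had 161 counts in cell 33 of rat 3 and 14 in cell 20 of rat 2, and at most 3 in collagen-negative cells. The 8 measured fibrillar chains other than Col1a1 and Col3a1 differed by 4.42 ± 5.05 points (SD, n = 2 rats), at 11.3% per collagen-rich cell and 6.85% per collagen-negative cell, less than the spread between rats. Col1a2, the partner chain of Col1a1, has no row under that symbol. The row NEWGENE_621351_2, which the reference table does not annotate, had 518, 281, 301 and 22 counts in cells 14, 20, 33 and 45 and 0 in the other 3 collagen-rich cells, against 1 count in 1 collagen-negative cell. It had the lowest adjusted p of the reported genes in DESeq2 (adjusted p = 0.00102; log2 fold change 10.59) and an adjusted p of 0.309 in edgeR.

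Genes for collagen folding, trimming and cross-linking were found at 10.8% of 27 measured members per collagen-rich cell and 5.64% per collagen-negative cell, a difference of 5.14 ± 0.50 points (SD, n = 2 rats). Serpinh1, the collagen chaperone HSP47, had 77 counts in cell 20 of rat 2 and at most 3 in the other collagen-rich cells, against at most 1 in collagen-negative cells. P4hb, a subunit of prolyl 4-hydroxylase, had 57 counts in cell 14 of rat 2 and 1 in cell 10, against 0 in all 17 collagen-negative cells. Lox, the lysyl oxidase that the diet blocks, had 71 counts in cell 14 of rat 2 and at most 1 in the other collagen-rich cells, against 14 in collagen-negative cell 7 of rat 2. Loxl1, a related oxidase, ran the other way in rat 2: it had 1 count in collagen-rich cell 20, against 117 in collagen-negative cell 7. In rat 3 it had 11 and 40 counts in collagen-rich cells 43 and 45, against none in collagen-negative cells. Of the 3 members of this list that passed the filter, 0 were called.

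Matrix-degrading enzymes and their inhibitors were both found at higher rates in collagen-rich cells of both rats. Per cell, 10.1% of 25 matrix proteases were found in the collagen-rich class and 3.89% in the collagen-negative class, a difference of 6.24 ± 4.43 points (SD, n = 2 rats). Mmp2, gelatinase A, had 50 and 81 counts in cells 14 and 20 of rat 2 and 4 and 2 in cells 33 and 45 of rat 3, against 1 count in 1 collagen-negative cell. Mmp9, Mmp12, Mmp13 and Mmp3 had no count in any collagen-rich cell. In all, 10 of the 25 proteases had none in the collagen-rich cells and 12 none in the collagen-negative cells. Of all 22081 genes, 12087 had none in the collagen-rich cells and 10922 none in the collagen-negative cells. Of 13 protease inhibitors, 13.0% were found per collagen-rich cell and 3.21% per collagen-negative cell, a difference of 9.81 ± 4.15 points. Timp2, a tissue inhibitor of metalloproteinases, had 1, 1, 8 and 200 counts in cells 10, 14, 20 and 27 of rat 2, against 0 in the collagen-negative cells. Summed over rats 2 and 3 it was at least 76.7-fold higher in collagen-rich cells, against a floor of 3 counts over the collagen-negative cells, and this rests on cell 27.

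Apoe, which encodes apolipoprotein E, a lipid carrier made by macrophages and other cells, was the gene whose detection differed most. It had 70, 220, 187 and 15 counts in collagen-rich cells 10, 14, 20 and 27 of rat 2 and 84, 92 and 130 in cells 33, 43 and 45 of rat 3. Collagen-negative cells ran from 0 to 597 with a median of 0: cell 7 of rat 2 had 597, the next had 5, and 12 had none. All 7 collagen-rich cells (exact 95% interval 59.0 to 100%) and 2 of 17 collagen-negative cells (1.46 to 36.4%) had 5 or more counts; the intervals cover counting of cells only. The 597 counts of cell 7 brought the rat 2 sums to 8950 CPM in collagen-rich and 6989 CPM in collagen-negative cells, while in rat 3 they were 3077 and 12.2 CPM. The log2 fold change was 3.88 ± 3.23 (SE; adjusted p = 0.884, edgeR), and it was 6.87 without cell 7.

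The list of lipid-associated macrophage genes holds Apoe itself. At the common depth 19.5% of its 14 measured members were found per collagen-rich cell and 5.25% per collagen-negative cell, a difference of 14.3 ± 3.89 points (SD, n = 2 rats). Without Apoe, 13.4% of the other 13 were found per collagen-rich cell and 4.02% per collagen-negative cell, a difference of 9.33 ± 5.51 points (SD, n = 2 rats). Gpnmb, a lysosomal membrane glycoprotein, had 10, 1 and 8 counts in cells 10, 14 and 27 of rat 2 and 24 in cell 33 of rat 3, against 219 in collagen-negative cell 7 of rat 2 and 0 in the other 16. Ctsb, the lysosomal protease cathepsin B, had 0 to 26 counts in collagen-rich cells, against 543 in cell 7 of rat 2. Spp1, Lipa and Fabp5 had no count in any collagen-rich cell, and 3 members of the list had none in any collagen-negative cell. Over all 22081 genes these numbers were 12087 for the collagen-rich cells and 10922 for the collagen-negative cells.

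**Figure D3:**
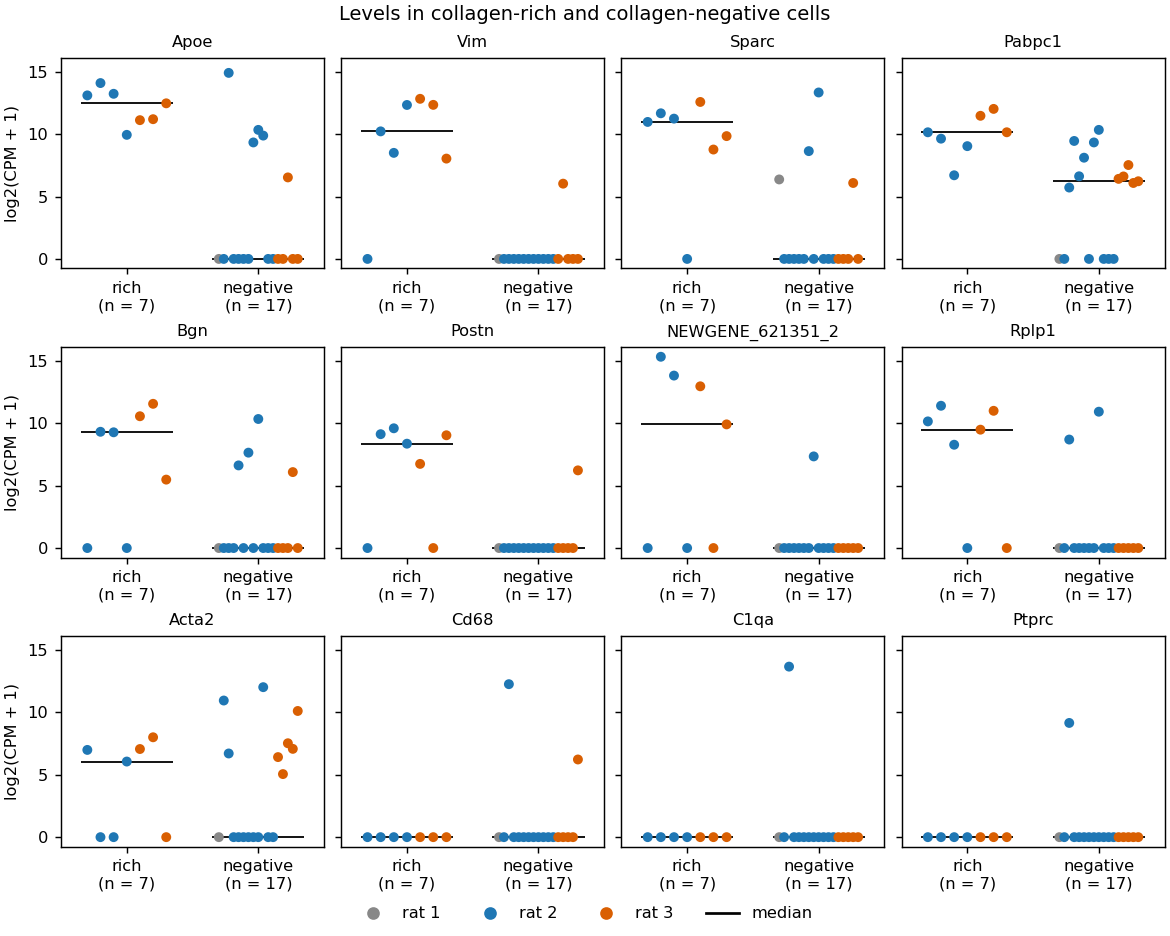
Level as log2(CPM + 1) of 12 genes in the 7 collagen-rich cells (left in each panel) and the 17 collagen-negative cells (right); each point is 1 cell, coloured by rat, and lines are class medians. Apoe is above 0 in all 7 collagen-rich cells and Vim in 6 of them, while Cd68, C1qa and Ptprc are at 0 in all 7.

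Of 22 macrophage markers, 12 had a count in a collagen-rich cell and 17 in a collagen-negative cell. Thus 10 had none in the 7 collagen-rich cells and 5 none in the 17 collagen-negative cells. Of all 22081 genes, 12087 had none in the collagen-rich cells and 10922 none in the collagen-negative cells. Cd68, a lysosomal glycoprotein of macrophages, C1qa, a complement C1q chain, and Ptprc, the pan-leukocyte antigen CD45, had no count in any of the 7 collagen-rich cells, so that the exact 95% upper limit was 41.0% of cells with a count, which does not limit the share of cells that express the gene. Among collagen-negative cells they were high in cell 7 of rat 2, with 95, 252 and 11 counts, and Cd68 had 1 count in 1 further cell. Cd163, Adgre1 and Itgam were among the 10 with no count in any collagen-rich cell. Csf1r, the receptor for colony stimulating factor 1, had 3 and 2 counts in cells 14 and 20 of rat 2.

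Even so, each collagen-rich cell held 1 to 3 of the 22 macrophage markers at 5 or more counts, against 0 to 6 in collagen-negative cells, of which 6 of 17 had any. The markers differed from cell to cell. C1qb had 55 counts in cell 10, and C1qc had 113 in cell 20, both of rat 2, and each was at 0 in the other 6 collagen-rich cells, against 145 and 12 in collagen-negative cell 7 of rat 2. Lyz2, lysozyme, had 23 counts in cell 14 and 23 in cell 27 of rat 2 and 5 in cell 33 of rat 3, against 44 in collagen-negative cell 34 of rat 3. Tyrobp, an adaptor of myeloid receptors, had 36 counts in cell 27 of rat 2 and 18 in cell 45 of rat 3, against at most 5 in collagen-negative cells. The share of a cell's counts in the whole marker list ran from 0.0410% to 0.733% in collagen-rich cells (median 0.460%) and from 0 to 2.84% in collagen-negative cells (median 0.0397%). In rat 2 the medians were 0.550% in collagen-rich and 0.0391% in collagen-negative cells. In rat 3 they went the other way, at 0.0479% in collagen-rich and 0.0671% in collagen-negative cells.

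The rats went opposite ways on this list at 1 or more counts and the common depth, but not at every threshold. In rat 2, 18.2% of macrophage markers were found per collagen-rich cell and 8.65% per collagen-negative cell at the common depth; in rat 3 these were 6.66% per collagen-rich and 8.51% per collagen-negative cell. The mean difference was 3.85 ± 8.05 points (SD, n = 2 rats), smaller than its spread. At 5 or more counts without a common depth both rats had the higher rate in collagen-rich cells, with 9.09% against 3.72% in collagen-negative cells of rat 2 and 7.58% against 2.73% in those of rat 3, a difference of 5.11 ± 0.37 points (SD, n = 2 rats). Over all genes the difference under this setting was 0.88 points. At 5 or more counts and the common depth rat 3 again went the other way, and the difference was 2.01 ± 3.38 points. Of the 6 markers that passed the filter, 0 were called, and their median log2 fold change was 1.27, beside 0.03 over all genes. It was -0.34 over the 19 markers with counts when no filter was set, beside -0.23 over all genes.

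Fibroblast markers were found in collagen-rich cells as scattered members. Of 19 measured markers, 13.9% were found per collagen-rich cell and 6.42% per collagen-negative cell at the common depth, a difference of 7.44 ± 2.84 points (SD, n = 2 rats). Postn, Dcn and Lum belong to this list and to the matrix list, so the lists are not separate evidence. Sfrp2, a secreted modulator of Wnt signalling, had 1 and 66 counts in cells 14 and 20 of rat 2 and 286 in cell 43 of rat 3, and 0 in the other 4 collagen-rich cells, against at most 2 in collagen-negative cells. Its log2 fold change was 6.44 ± 1.23 in edgeR (SE; adjusted p = 0.309), and DESeq2 called it (adjusted p = 0.0398). Pdgfra, the receptor that marks many fibroblasts, had 1 count in 1 collagen-rich cell and 1 count in 1 collagen-negative cell. Fibroblast markers took 0.0372% to 1.34% of counts in collagen-rich cells and 0 to 0.0782% in collagen-negative cells, and the highest shares were in cells 20, 43 and 45. In all, 2 members passed the filter on low counts, both through their counts in collagen-rich cells, and 0 were called by edgeR. With no filter the median log2 fold change of the 15 members with counts was 0.25, beside -0.23 over all genes.

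Contractile smooth muscle markers set the classes apart less. Acta2, smooth muscle actin, had 0 to 10 counts in collagen-rich cells (median 1) and 0 to 22 in collagen-negative cells (median 0), and 2 of 7 and 3 of 17 cells reached 5. Tagln, Cnn1 and Myl9, which encode proteins of the contractile apparatus, had no count in any collagen-rich cell. Tagln had 1 count in each of 2 collagen-negative cells. In all, 7 of the 16 markers had none in the collagen-rich cells and 5 none in the collagen-negative cells. Over all 22081 genes these numbers were 12087 and 10922. Myh11, the smooth muscle myosin heavy chain, had at most 2 counts in a collagen-rich cell and at most 1 in a collagen-negative cell. Myocd, a coactivator of contractile genes, had 173 counts in collagen-rich cell 45 of rat 3 and at most 3 in the other 6, against at most 2 in collagen-negative cells. At the common depth 13.8% of 16 markers were found per collagen-rich cell and 11.3% per collagen-negative cell, a difference of 2.44 ± 2.00 points (SD, n = 2 rats). The median log2 fold change of the 4 that passed the filter was -0.996, beside 0.03 over all genes, and -0.33 over 11 markers with no filter.

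The list of myofibroblast and wound matrix genes, which shares Acta2, Postn, Fn1, Tnc, Sparc and Bgn with the lists above, differed by 16.7 ± 1.39 points (SD, n = 2 rats), at 23.3% per collagen-rich cell and 6.57% per collagen-negative cell. Endothelial markers differed by 0.76 ± 1.92 points (SD, n = 2 rats), at 8.69% per collagen-rich cell and 7.93% per collagen-negative cell. Pericyte markers differed by 0.24 ± 9.71 points, at 19.1% per collagen-rich cell and 18.8% per collagen-negative cell. Both lists had the higher rate in the collagen-rich cells of rat 2 and the lower rate in those of rat 3. For pericyte markers the rates were 21.7% against 14.6% in collagen-negative cells of rat 2, and 16.5% against 23.1% in those of rat 3. Pdgfrb, a receptor of pericytes and other mural cells, was found in all 7 collagen-rich cells at 1 to 27 counts and in 13 of 17 collagen-negative cells at up to 24. In both rats the collagen-rich rate was the lower one for adipocyte markers, at 5.23% against 9.85% in collagen-negative cells. The same held for neutrophil markers, at 1.44% against 3.64%. Schwann and neuronal markers had 7.51% against 8.14%, a difference of -0.62 ± 1.94 points, and the rats went opposite ways.

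**Figure D4:**
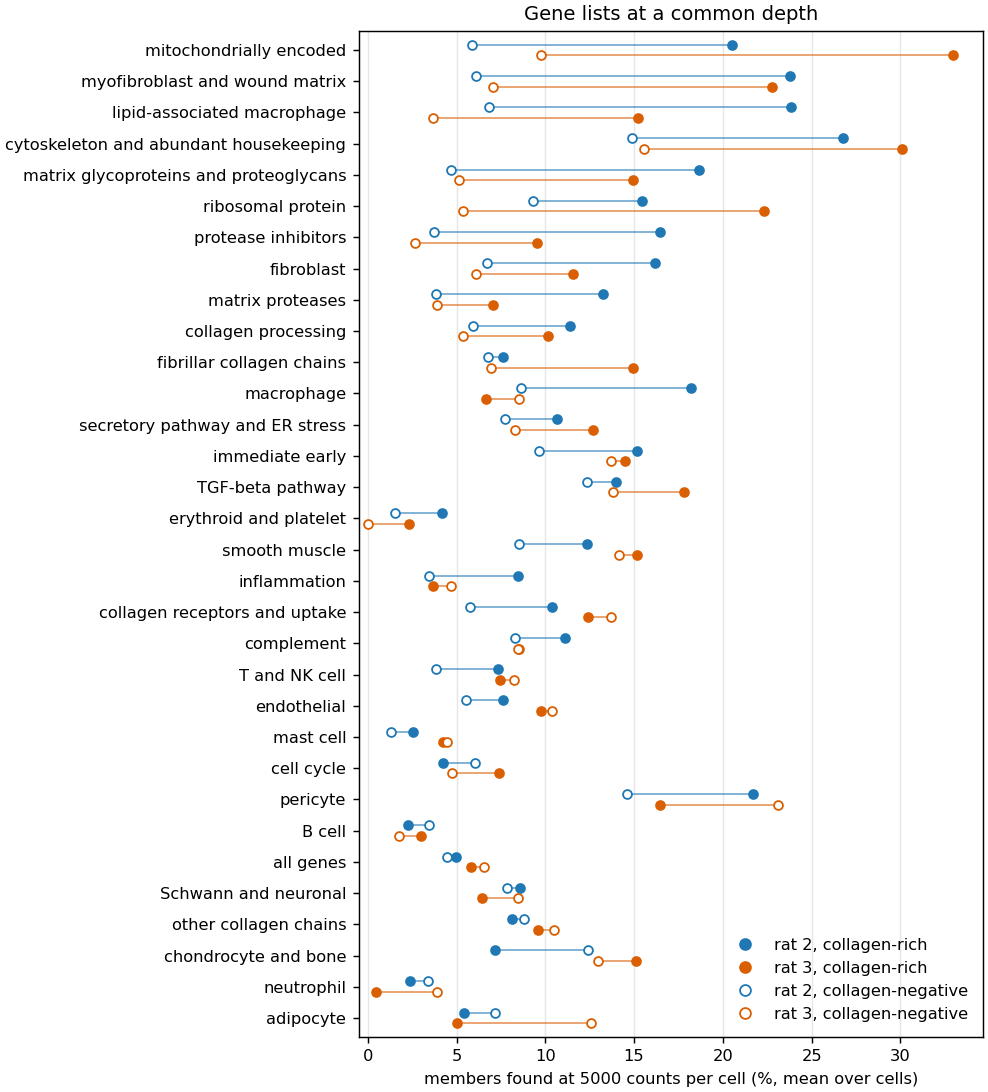
Percent of a list's measured members expected at 1 or more counts when each cell is drawn down to 5000 counts (horizontal axis), averaged over the cells of a rat; filled points are collagen-rich cells and open points collagen-negative cells of the same rat. For the matrix, myofibroblast, lipid-associated, housekeeping, ribosomal and mitochondrial lists the filled points lie right of the open ones in both rats, while for the macrophage list they do so in rat 2 and not in rat 3.

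Abundant genes without a tie to matrix also had higher rates in collagen-rich cells. Vim, for the intermediate filament protein vimentin of mesenchymal and many other cells, had 0, 15, 7 and 79 counts in collagen-rich cells 10, 14, 20 and 27 of rat 2 and 275, 204 and 6 in cells 33, 43 and 45 of rat 3. Of the collagen-negative cells, 1 had 2 counts and 16 had none. Only cell 10 overlapped with them. The log2 fold change was 8.59 ± 1.55 in edgeR (SE; adjusted p = 0.309) and 8.82 in DESeq2 (adjusted p = 0.0139). Of the 22 measured genes of the cytoskeleton and housekeeping list, 28.4% were found per collagen-rich cell and 15.2% per collagen-negative cell, a difference of 13.2 ± 1.93 points (SD, n = 2 rats).

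Pabpc1, which binds the poly(A) tail of mRNAs, had 2 to 163 counts in collagen-rich cells (median 10) and 0 to 8 in collagen-negative cells. Prdx1, a peroxide-removing enzyme, had 85 counts in cell 20 of rat 2 and 24, 53 and 5 in cells 33, 43 and 45 of rat 3, against at most 1 in collagen-negative cells. Fth1, the ferritin heavy chain, had 0 to 688 counts in collagen-rich cells (median 22) and 0 to 55 in collagen-negative cells (median 0). Tmsb4x, an actin-binding thymosin, had 0 to 159 counts in collagen-rich cells, but its highest value, 249, was in the collagen-negative cell of rat 1; its log2 fold change was 4.31 in rats 2 and 3, 2.94 in these rats with no replicate block, and -2.15 with rat 1 included and no replicate block. B2m, for the common light chain of class I histocompatibility molecules, had 30 and 13 counts in cells 20 and 27 of rat 2 and 31 and 1 in cells 33 and 43 of rat 3 and none in collagen-negative cells; it was among the DESeq2 calls (adjusted p = 0.0455) and is named after its values were seen.

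Ribosomal protein genes took 2.16% to 13.0% of counts in collagen-rich cells (median 4.44%) and 0.0335% to 4.02% in collagen-negative cells (median 1.07%). Mitochondrially encoded genes took 0.197% to 1.53% in collagen-rich cells (median 0.413%) and 0 to 0.742% in collagen-negative cells (median 0.0311%). At the common depth 18.9% of 104 ribosomal protein genes were found per collagen-rich cell and 7.32% per collagen-negative cell, and 26.7% against 7.82% of 13 mitochondrial genes. By contrast, the genes found in 50 or more of the 52 cells took 15.7% to 38.9% of counts in collagen-rich cells (median 25.6%) and 13.1% to 42.8% in collagen-negative cells (median 33.1%). These shares and the depth moved with the classes beside each list described above, and their part in the results was not tested. Rpl23a had 1568 counts in cell 27 of rat 2 and 0 to 31 in the other collagen-rich cells, against at most 22 in collagen-negative cells. Rplp0 and Rplp1, proteins of the ribosomal stalk, reached 5 counts in 5 of 7 collagen-rich cells each, against 2 and 1 of 17 collagen-negative cells. Ribosomal protein genes, Fth1, Tmsb4x and Eef1a1 have near-identical copies elsewhere in the genome, so their counts are uncertain. Erf, Med1, Slc5a4b, Wwc1 and Zfp791 also led by share of cells, but with log2 fold changes of 1.71, 0.66, 0.42, 0.28 and 1.12.

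Other genes reached 5 counts in a larger share of collagen-negative cells, and Trim63, which encodes the muscle ubiquitin ligase MuRF1, led them. It had 0 to 3 counts in collagen-rich cells (median 1) and 0 to 64 in collagen-negative cells, of which 8 of 17 had 5 or more (exact 95% interval 23.0 to 72.2%), against 0 of 7. Its log2 fold change was -3.96 ± 1.06 (SE; adjusted p = 0.309, edgeR). Mlh3, of DNA mismatch repair, had at most 1 count in collagen-rich cells and reached 5 in 6 of 17 collagen-negative cells. Nsrp1, a splicing factor, had at most 3 counts in collagen-rich cells and up to 34 in collagen-negative cells. Gtf3c2, a subunit of transcription factor IIIC, reached 5 counts in 2 of 7 collagen-rich and 11 of 17 collagen-negative cells, and Emc1, of a membrane protein complex of the endoplasmic reticulum, in 2 of 7 collagen-rich and 11 of 17 collagen-negative cells. Eef1a1, a translation elongation factor, had no count in any collagen-rich cell and reached 5 in 5 of 17 collagen-negative cells. Of these genes 0 were called by edgeR or DESeq2, and the 3 that DESeq2 called lower were Rbpj, Zswim5 and H3f3b, with up to 2, 0 and 0 counts in collagen-rich cells and up to 219, 231 and 181 in single collagen-negative cells.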

How the data were processed

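The 52 libraries, each 1 cell, were made with a SMART-Seq kit per the labels' protocols. The authors deposited 1 table of raw counts for 22081 gene symbols. The aligner, counter and build, and whether strand was used, were not given in the sources used here. Total counts per cell are given as ranges with the results; intervals and floors cover counting error only. There were 0 columns without a sample, and 0 pairs of cells with identical values.

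Cells were classed by the raw sum of Col1a1 and Col3a1. Since cells of 1 rat are not replicates, counts were summed per rat and class, and rats 2 and 3, which held both classes, were compared with rat as a block, a pairing given by the labels' animal of origin. edgeR 4.0.16 (TMM, filterByExpr, quasi-likelihood test, Benjamini-Hochberg adjustment) in R 4.3.3 was the main test, and DESeq2 1.42.0 an alternative. The 2 collagens were kept out of the genes counted as tested, called or differing by 50 points. They stayed in the 22081 genes over which detection rates and genes without a count are given. They also stayed in the median over all genes with no filter. Detection of lists was averaged over cells, then rats, with Python 3.11.15; the common depth of 5000 counts used exact expected values. The scripts were tested on simulated data.

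Genes named were taken, not all of them described, from the 20 and 10 (collagen-rich and collagen-negative) leading by share of cells at 5 or more counts, the 4 members of each list found in most collagen-rich cells, up to 10 edgeR calls per direction and a fixed set of markers; further list members, DESeq2 calls and top genes of single cells were named after their values were seen. Symbols starting AABR, AC, LOC, RGD or Rn were left out of the lead. The members and the lists were chosen with earlier results of these data known. A gene that the rule names is not reported here.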

Additional observations from a re-analysis of the deposited data

Results flagged for a closer look

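Among 24 measures tested over the 7 collagen-rich cells for 1 cell standing apart from the rest, 5 were flagged. The rule flags about 1 in 20 independent measures with normally spread values. Levels at 0 are not such values, and genes were among the measures for leading in these cells, so no excess is read from the 5. The ribosomal share was 13.0% in cell 27 of rat 2. The mitochondrial share was 1.53% in cell 45 of rat 3. Vim had a log2(CPM + 1) of 0 in cell 10 of rat 2, and Sparc had 0 in cell 27 of rat 2. Zfp791 had a log2(CPM + 1) of 5.49 in cell 45 of rat 3, below the other 6.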

How the results depend on the processing

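With edgeR the counts of genes called were 0 in either direction under TMM, another normalization (RLE), other thresholds, no replicate block (0), rat 1 included, thinning to a common depth and leaving out each collagen-rich cell or cell 7 of rat 2 in turn (0 to 0). With no filter on low counts 1 gene was called higher (NEWGENE_621351_2, adjusted p = 0.00121), and DESeq2 called 19 higher and 3 lower. Leaving out rat 2 or rat 3 leaves 1 rat, and no test could be fitted.

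The median log2 fold change of the fibroblast list was 5.95 (2 genes) and 0.25 with no filter (15 genes). With a rat or cell left out it was 5.17 to 6.82, over 1 to 3 genes. The 2 genes passed the filter through their counts in collagen-rich cells, so the sign and steadiness of 5.95 are no support. The median of the smooth muscle list was -0.996 (4 genes) and 0.77 with collagen-negative cells of 10000 or more counts (2 genes). With a rat or cell left out it was -2.04 to -0.51, over 2 to 4 genes. None of the list's members passed after thinning. The median of the macrophage list was 1.27 (6 genes), -0.34 with no filter (19 genes) and 0.44 after thinning (1 gene). With a rat or cell left out it was -0.76 to 2.24, over 4 to 6 genes.

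The difference in percent of members found, without a common depth, was 6.16 points for macrophage markers (-1.21 without rat 2, to 13.5 without rat 3). Over all genes this difference was 4.11 points at 1 or more counts and 0.88 points at 5 or more counts. For fibroblast markers it was 13.7 points, 9.54 at 5 or more counts, 7.44 at 5000 counts, 10.6 with collagen-rich set at 1000 CPM, 9.04 with collagen-negative cells of 10000 or more counts, and 3.08 at 5 or more counts expected at 5000 counts. For smooth muscle markers it was 8.64 points, and 4.46, 2.44, 4.63, 5.73 and -0.33 under those settings in that order, 11.2 with each cell weighted equally, 6.04 with a threshold of 20, and 6.04 to 11.0 with a rat or cell left out. The cause of these moves was not tested. Among single genes 3 changes of direction were seen: Slc5a4b (-0.47) and Lyz2 (-2.99) without rat 2, beside 1.19 and 8.85 without rat 3, and Tmsb4x (-2.15) with rat 1 included and no replicate block, beside 2.94 with no replicate block alone. In 704 other comparisons of a named gene the call and direction held, and in 4 a gene passed the threshold: NEWGENE_621351_2 under no filter and under DESeq2, and Vim and Rpl23a under DESeq2. Including rat 1, leaving out single cells, leaving Apoe out of the lipid-associated list and the stricter common depth were chosen after seeing the data. Precision was limited by the 2 rats that held both classes and by cells of few counts.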

Other observations

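With the genes found in 50 or more of the 52 cells left out, each collagen-rich cell had its own leading transcripts. Cell 14 of rat 2 had 299 counts of Grem1, an antagonist of bone morphogenetic proteins, and 181 of Litaf. Cell 20 of rat 2 had 263 counts of Gpx3, a secreted glutathione peroxidase. Cell 43 of rat 3 led with Park7 (445 counts), and with Rcn1 (355) and Erp29 (339), which encode proteins of the endoplasmic reticulum, and it had 334 counts of Ccdc80 and 307 of the proteoglycan gene Gpc1. Cell 45 of rat 3 had 73 counts of Serpine2, a protease inhibitor found in no other cell of either class, and 172 of Ext2, which builds heparan sulfate. These genes were named after their values were seen.

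Signalling and growth lists differed little at 1 or more counts and the common depth. Of the 18 genes of the TGF-beta pathway 15.9% were found per collagen-rich cell and 13.1% per collagen-negative cell. At 5 or more counts without a common depth these rates were 7.64% and 1.62%, higher in the collagen-rich cells of both rats. Over all genes the difference under that setting was 0.88 points. Of 14 cell cycle genes 5.80% were found per collagen-rich cell and 5.40% per collagen-negative cell at the common depth. The rats went opposite ways on the cell cycle list. Mki67, a marker of cycling cells, had 15 counts in collagen-rich cell 43 of rat 3 and at most 2 in the other 6. Genes of the secretory pathway were found at 11.7% per collagen-rich cell and 7.99% per collagen-negative cell, a difference of 3.70 ± 1.05 points (SD, n = 2 rats). Calr, the chaperone calreticulin, had 11 and 10 counts in cells 14 and 20 of rat 2 and 46 in cell 43 of rat 3, against at most 2 in collagen-negative cells. Junb, of the immediate early group, had 23 counts in cell 20 of rat 2 and 32 in cell 45 of rat 3, against at most 2 in collagen-negative cells (log2 fold change 4.17 ± 0.87, SE; adjusted p = 0.309, edgeR). For the remaining lists the collagen-rich and collagen-negative values were 14.8% and 11.7% for immediate early and 6.05% and 4.07% for inflammation genes. In that order they were 9.81% and 8.37% for complement, 11.4% and 9.72% for collagen receptors, and 7.39% and 6.03% for T and NK cell genes. They were 2.63% and 2.62% for B cell, 3.38% and 2.87% for mast cell, and 3.26% and 0.773% for erythroid and platelet genes. Chondrocyte and bone genes had 11.1% and 12.7%. The rats went opposite ways on the inflammation, collagen receptor, T and NK cell, B cell, mast cell, and chondrocyte and bone lists. For chondrocyte and bone genes the difference was -1.56 ± 5.21 points, and for collagen receptors it was 1.68 ± 4.22 points (SD, n = 2 rats).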
